A study of Mus musculus with 6 samples.

Results

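The genes described here encode neurofilament subunits and other proteins of the axonal and dendritic cytoskeleton in mouse striatum. The members are the 10 genes Nefl, Nefm, Ina, Mapt, Map1a, Map1b, Map2, Tubb3, Stmn2 and Stmn3, taken with every probe set that the platform annotation assigns to 1 of these symbols alone. They are 10 of 18193 named genes on the array and are read by 24 probe sets. All 24 passed the filter on dim signals and were tested.

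Striatal RNA was profiled in 3 PGC-1alpha null mice (KO, PGC-1a-/-) and 3 wild-type littermates (WT, PGC-1a+/+). All were females of 6 months, and the labels name no treatment. PGC-1alpha, encoded by Ppargc1a, is a transcriptional coactivator of mitochondrial and oxidative genes. Both genotypes were bred from heterozygous founders, and the labels do not say which part of the gene was altered. Each mouse had 1 Affymetrix array, and the label of KO 3 names cytoplasmic RNA where the other 5 name total RNA. Several values are therefore also given without KO 3.

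Neurofilaments are the intermediate filaments of neurons. The light and medium subunits (Nefl, Nefm) and alpha-internexin (Ina) co-assemble into polymers that set the calibre of large axons. Microtubules, built from alpha and beta tubulin, are the tracks of axonal transport. Tau (Mapt) and MAP1A, MAP1B and MAP2 bind and stabilise them, whereas stathmins bind free tubulin dimers. Striatum consists mostly of medium spiny neurons, which have thin axons, and is crossed by myelinated cortical fibres whose cell bodies lie outside it.

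The labels held on the targeted gene. All 5 Ppargc1a probe sets were lower in every KO mouse than in any WT mouse, by 2.17-fold to 3.81-fold on the log2(signal + 16) scale (limma adjusted p from 3.0e-05 to 0.0083). Of 9 medium spiny neuron markers 7 were tested, and their summed signal was 25387 to 27766 in KO mice and 23501 to 28066 in WT mice. Every array had been scaled to the same mean, so a difference is one against the bulk of probe sets. Control probe sets gave log2 ratios of 3' to 5' signal of -0.46 to -0.44 in KO and -0.49 to -0.43 in WT for GAPDH. For actin the ratios were 1.04 to 1.17 in KO and 1.03 to 1.24 in WT, so 3' signal was the stronger there in every mouse.

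No member changed at the threshold used here. In a limma fit over 27022 probe sets, 0 of the 24 member probe sets passed an adjusted p under 0.05, against 0.47% of all probe sets tested, and the smallest adjusted p was 0.46. At an unadjusted p under 0.05 there were 2 of 24 member probe sets (8.33%), against 9.17% of all probe sets. Both were higher in KO, and 4.11% of all probe sets had such a p with KO higher. KO and WT mice did not overlap in 4 of 24 probe sets (16.7%), against 14.4% of all probe sets, so these shares lay near those of the whole array. All 4 had KO higher, and 6.52% of all probe sets were without overlap and with KO higher. Differences of the 24 probe sets ran from -0.23 to 0.21 on the log2 scale, 11 of them positive and 13 negative (16 positive after centring the arrays on their medians). Taking the brightest probe set of each gene, 4 of 10 genes were higher and 6 lower in KO, with a median of -0.04 (-0.07 without KO 3 and -0.0029 without WT 1), against -0.01 over 12323 named genes, and 0.0022 for the members after centring. Without KO 3 the count passing stayed at 0.

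**Figure D1:**
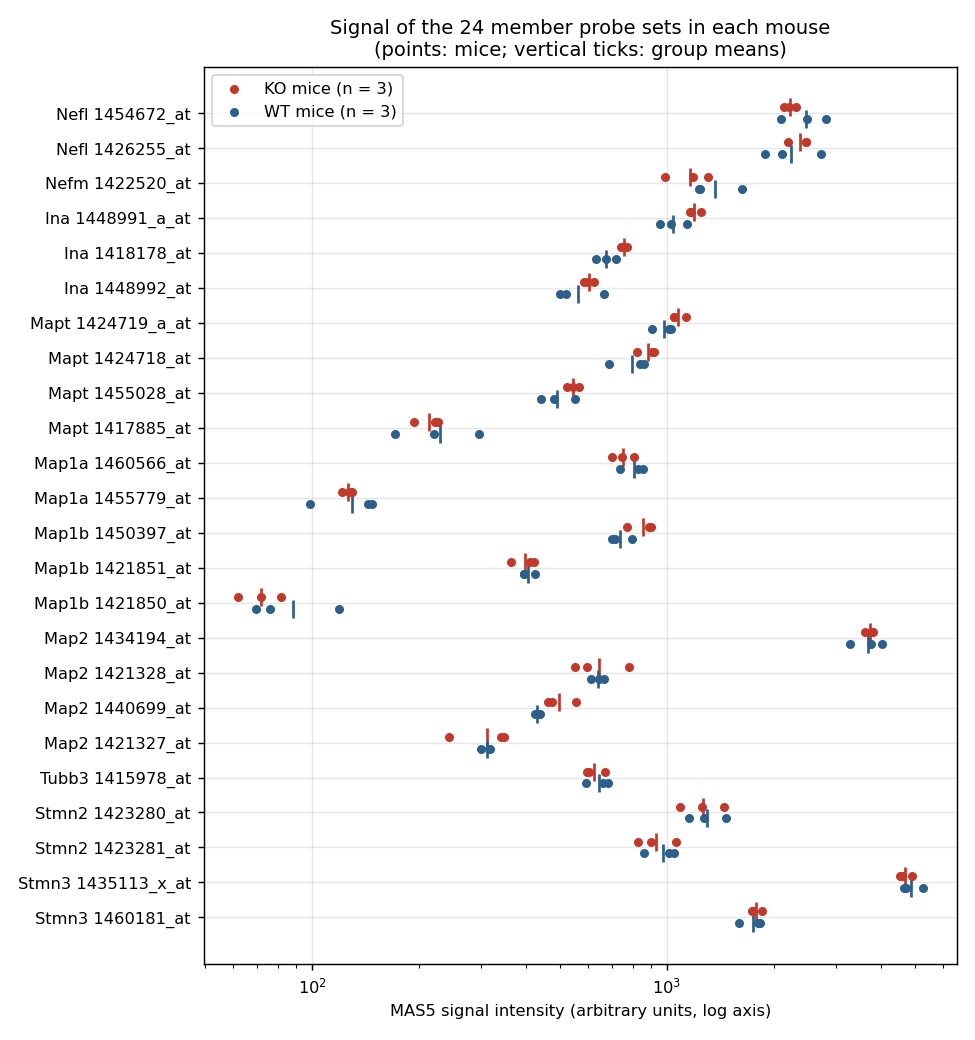
MAS5 signal of the 24 member probe sets on a log axis, with KO mice (red, upper row of each pair) and WT mice (blue, lower row) as points and group means as vertical ticks (n = 3 each). KO and WT points lie apart, with KO higher, for Ina 1448991_a_at, Ina 1418178_at, Mapt 1424719_a_at and Map2 1440699_at, and overlap for the other 20.

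Because nothing passed, the intervals say how much change the arrays leave room for. The limma 95% intervals of the 24 differences lay between -0.64 and 0.40 on the log2 scale, which corresponds to a KO signal between 0.64 and 1.32 times that of WT on the offset scale. The standard errors ran from 0.07 to 0.19. Both extremes came from Map1b, the lower from its dimmest probe set and the upper from its brightest.

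**Figure D2:**
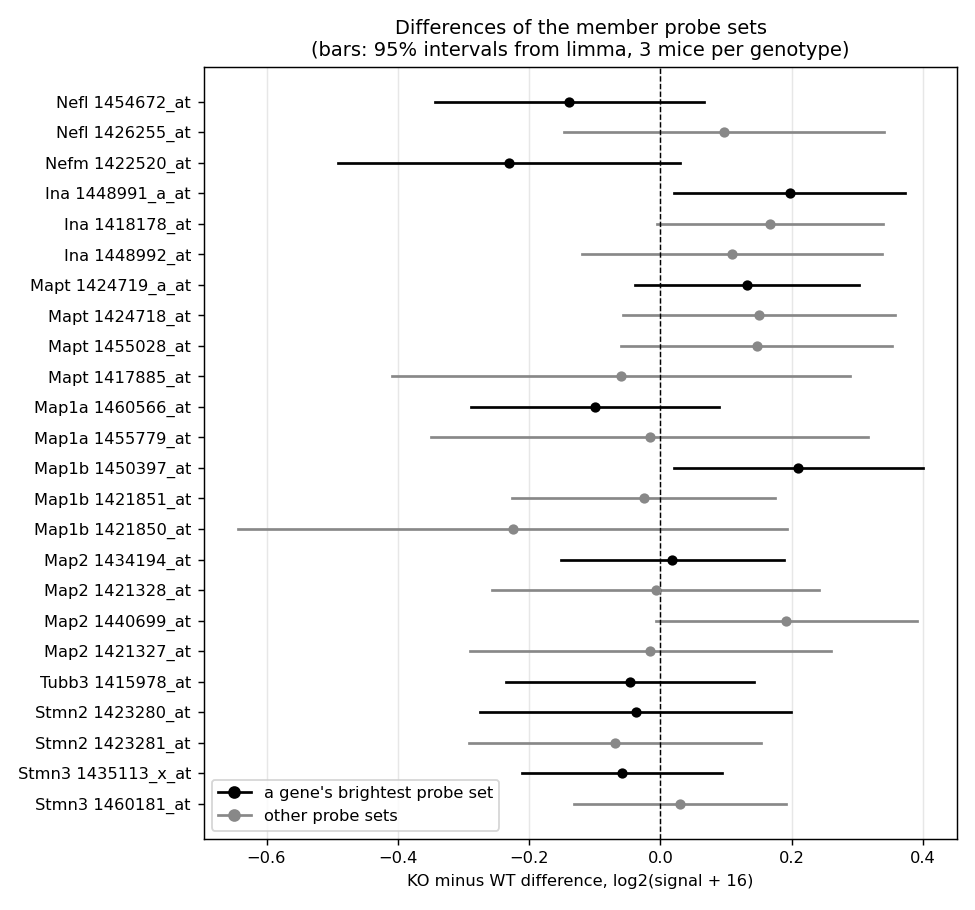
KO minus WT difference of each member probe set on the log2(signal + 16) scale, with limma 95% intervals (3 mice per genotype), black for a gene's brightest probe set and grey for the others. The interval lies wholly above 0 for Ina 1448991_a_at and Map1b 1450397_at and includes 0 for the other 22.

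Nefl, the light subunit at the core of the filament, did not differ detectably. Its brightest probe set (1454672_at) read 2133.4, 2314.1 and 2206.5 in KO 1, KO 2 and KO 3, against 2800.7, 2479.5 and 2096.3 in WT 1, WT 2 and WT 3. The KO mice lay close together and inside the WT range. The means were 2218 ± 90.9 in KO and 2459 ± 353 in WT (SD, n = 3 each), a difference of -0.14 (95% interval -0.34 to 0.07, limma adjusted p = 0.72). A second Nefl probe set (1426255_at) read 2460, 2463.8 and 2191.9 in KO mice, against 2721.6, 2112.1 and 1886.6 in WT mice. Its difference had the opposite sign, 0.10 (interval -0.15 to 0.34), so the array gives no direction for Nefl. Across both probe sets WT 1 was the highest of the 6 mice, and without WT 1 the first difference was -0.04 and the second 0.24. Without WT 3 both were negative, at -0.25 (limma adjusted p = 0.30) and -0.02, and without KO 3 the second was 0.15 and without WT 2 0.06.

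Nefm, the medium subunit with a long phosphorylated tail, had the most negative difference of the 24. Its only probe set (1422520_at) read 1183.2, 1306.6 and 987.2 in KO mice, against 1627.9, 1229.5 and 1239.7 in WT mice. KO 3 was the lowest and WT 1 the highest, while KO 2 lay above WT 2 and WT 3, so the groups overlapped. The means were 1159 ± 161 in KO and 1366 ± 227 in WT, a difference of -0.23 (interval -0.49 to 0.03, limma adjusted p = 0.61). It rested on those mice, at -0.10 without WT 1 and -0.12 without KO 3. Nefl and Nefm are neighbours on chromosome 14 with 0 protein-coding genes between them in the GRCm38.p6 table.

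Ina, alpha-internexin, is a subunit that appears before the others in developing neurons. Its probe sets shared a direction, as did the 2 of Map1a and the 2 of Stmn2. All 3 of its probe sets gave positive differences, and KO and WT did not overlap in 2 of them. Signals for the brightest (1448991_a_at) were 1249.6, 1169.1 and 1162.2 in KO mice, against 1140.2, 957.1 and 1026.5 in WT mice. Every KO mouse was above every WT mouse, though KO 3 and WT 1 differed little. The difference was 0.20 (interval 0.02 to 0.37), with an unadjusted p of 0.031 and an adjusted p of 0.46 in limma. The exact permutation p was 0.1, the smallest that 3 against 3 allows. Probe set 1418178_at read 740.4, 757.5 and 773.5 in KO mice, against 716.9, 673.8 and 629.6 in WT mice (difference 0.17, adjusted p = 0.56). Probe set 1448992_at overlapped, with 584.8, 597.8 and 624.2 in KO mice, against 664.8, 500.4 and 519.3 in WT mice (difference 0.11, adjusted p = 0.81). This last value was 0.23 without WT 1, 0.03 without WT 2 and 0.06 without WT 3. Without any 1 mouse the first probe set stayed between 0.14 and 0.26 and the second between 0.12 and 0.21. The upper ends of the 3 intervals lay between 0.34 and 0.37.

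Signals of the subunits relative to one another were compared within each mouse, by the brightest probe set of each gene. The comparison was chosen after the values were seen. The log2 ratio of Nefm to Ina signal was -0.08, 0.16 and -0.23 in KO mice, against 0.51, 0.36 and 0.27 in WT mice. All KO mice lay below all WT mice, with means of -0.05 ± 0.20 in KO and 0.38 ± 0.12 in WT and a difference of -0.43 (exact permutation p = 0.1, the smallest possible). Nefl to Ina gave 0.76, 0.98 and 0.92 in KO mice, against 1.28, 1.36 and 1.02 in WT mice, also without overlap (difference -0.34, exact permutation p = 0.1). The second Nefl probe set (1426255_at) had a difference of the opposite sign (0.10). Ratios with it were not computed, so the Nefl ratios hold for 1454672_at alone. The ratios compare change between genotypes and not amounts of protein or transcript. The ratio of Ina to the other 9 members did not overlap between genotypes for 5 of 9, against 29.3% of 12322 named genes. For Nefm it was 3 of 9 against 14%, and for Nefl 2 of 9 against 12.5%. The p-values were not adjusted over the 45 pairs possible among members, of which 13 (28.9%) showed no overlap, against 15.2% of all pairs of named genes. These 45 pairs share their genes and are not independent.

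**Figure D3:**
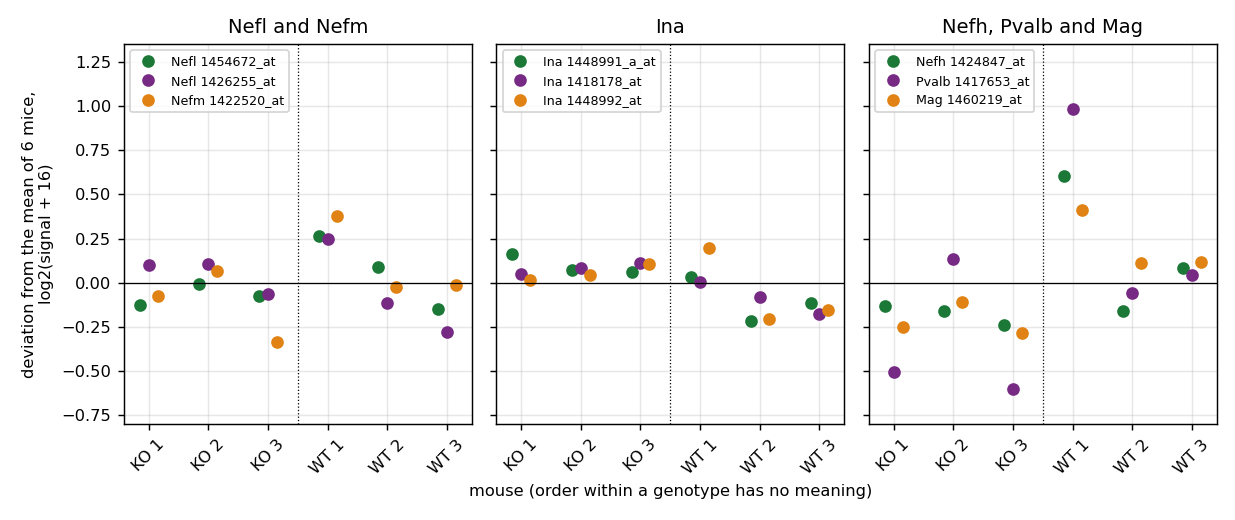
Deviation of each mouse from the 6-mouse mean on the log2(signal + 16) scale for the Nefl and Nefm probe sets (left), the 3 Ina probe sets (middle), and Nefh, Pvalb and Mag (right), with KO mice left of the dotted line and WT mice right of it. WT 1 is the highest mouse for Nefl, Nefm, Nefh, Pvalb and Mag, and the KO mice lie above 0 for Ina.

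WT 1 was also highest for Nefh, Pvalb and Mag, the genes of smallest p in lists of other filament, interneuron and myelin genes. Among the genes next by p in those lists, WT 1 was highest for Mobp, WT 2 for Plec and KO 3 for Sst. How many of all genes had WT 1 highest was not computed. Nefh, the heavy subunit, read 283.4, 276.5 and 261.1 in KO mice, against 481.6, 277.4 and 331.4 in WT mice. KO 1 and WT 2 overlapped, and the difference of -0.35 did not pass (limma adjusted p = 0.51). Pvalb, the calcium buffer of fast-spiking interneurons, read 475.5, 747.9 and 444 in KO mice, against 1362.4, 651.8 and 701.1 in WT mice (difference -0.64, adjusted p = 0.41). Mag, a myelin glycoprotein that faces the axon, was at 508.5, 561.2 and 494.9 in KO mice, against 812.4, 656.6 and 660.7 in WT mice, without overlap (difference -0.43, adjusted p = 0.11). Nefm and Pvalb kept the same order over the 6 mice, with a Spearman correlation of 1 and a Pearson correlation of 0.95, as a description of 6 arrays that share their scaling. Related pairs were less alike in order, with Spearman correlations of 0.49 for Nefl and Pvalb, 0.6 for Nefm and Nefh and 0.09 for Nefl and Nefh. For Ina and Pvalb the Pearson correlation was -0.17.

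Markers of neighbouring regions and other cells also differed between mice, and their part in the neurofilament values was not tested. Of 6 thalamic, septal and pallidal markers 5 were tested, with a summed signal of 1572 to 2019 in KO mice and 521 to 1922 in WT mice. All 5 were positive, with 0 passing (Tcf7l2 0.87 and Zic1 0.74, adjusted p = 0.34 and 0.42). Slc17a6, a vesicular glutamate transporter of thalamic neurons, read 337.9, 312.1 and 267.1 in KO mice, against 432.6, 78.4 and 177.5 in WT mice. The cortical excitatory list (5 of 6 tested, 0 passing, 3 negative) summed to 2226 to 2759 in KO mice and 2080 to 2954 in WT mice. The brightest gene supplied most of each sum. By list median relative to the WT mean, KO 1, KO 2 and KO 3 stood at -0.44, -0.62 and 0.63. WT 1, WT 2 and WT 3 stood at 0.36, 0.21 and -0.52, so the mice varied widely within each genotype. Its members with the smallest p were Neurod2 at -0.35 and Tbr1 at 0.30, and KO 3 was the highest KO mouse in both.

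Oligodendrocyte and myelin markers (6 of 7 tested, 0 passing, 5 negative) summed to 23895 to 25802 in KO mice and 24337 to 29331 in WT mice, with Mobp at -0.19 beside Mag. Interneuron markers (5 of 6 tested, 0 passing, 3 negative) summed to 2824 to 3455 in KO mice and 3085 to 3804 in WT mice, with Sst at 0.15 beside Pvalb. Astrocyte markers (6 tested, 0 passing, 4 positive) summed to 9477 to 10958 in KO mice and 9881 to 10177 in WT mice, with Gja1 at 0.14 and Aldh1l1 at -0.20. Microglial markers (6 tested, 0 passing, 3 positive and 3 negative) summed to 2896 to 3353 in KO mice and 2918 to 3310 in WT mice, with Aif1 at -0.64 and P2ry12 at -0.24. Cx3cr1, at 0.15, was the only microglial marker whose groups did not overlap. Vascular markers (4 tested, 0 passing, 3 negative) summed to 377 to 535 in KO mice and 417 to 499.9 in WT mice, with Cldn5 at -0.29 and Flt1 at 0.18. Pan-neuronal markers (6 tested, 0 passing, 3 positive and 3 negative) summed to 23746 to 25309 in KO mice and 23504 to 25153 in WT mice, with Rbfox3 at 0.15 and Thy1 at 0.12. Rbfox3 was higher in every KO mouse than in any WT mouse, if barely (2923.4 in KO 2, 2921.9 in WT 2). Snap25, at -0.09, was lower in every KO mouse than in any WT mouse. Cx3cr1 and Snap25 were named after their values were seen. Like Slc17a6, they were not among the 2 genes of smallest p in their lists. Drd2 at 0.22 and Penk at 0.10 had the smallest p among the 7 medium spiny neuron markers, with 0 passing and 6 positive. Over all marker lists, 5 of 50 genes tested had an unadjusted p under 0.05 in limma, namely Tcf7l2, Zic1, Pvalb, Mag and Aif1, a share near the 9.73% of all named genes. In bulk tissue fewer cells of a type and less RNA per cell cannot be told apart.

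Among the microtubule-associated proteins, Mapt, which encodes tau, had positive differences in 3 of 4 probe sets, none passing. Its brightest probe set (1424719_a_at) read 1048.1, 1133.8 and 1046.4 in KO mice, against 1027.5, 1012.7 and 904.2 in WT mice. The groups did not overlap, but KO 3 and WT 1 differed little. The difference was 0.13 (interval -0.04 to 0.30, limma adjusted p = 0.67). Probe set 1424718_at read 909, 916.8 and 821.6 in KO mice, against 862, 841.1 and 686.8 in WT mice (difference 0.15). Probe set 1455028_at read 565.4, 543.5 and 521.4 in KO mice, against 479.4, 551.3 and 442.8 in WT mice (difference 0.15). WT 3 was the lowest mouse in all 3. Without it these differences were 0.07, 0.05 and 0.08, and without WT 2 the third was 0.23. The dimmest (1417885_at) went the other way, at 193.2, 226.8 and 222.1 in KO mice, against 220.6, 294.4 and 170.8 in WT mice (difference -0.06).

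Map1b, prominent in growing axons, had the largest positive difference of the 24 in its brightest probe set and negative differences in the other two. Signals for 1450397_at were 890.1, 773.1 and 903 in KO mice, against 795.2, 714.1 and 700.6 in WT mice. KO 2 lay below WT 1, so the groups overlapped. The means were 855 ± 71.6 in KO and 737 ± 51.2 in WT (SD, n = 3 each), a difference of 0.21 (interval 0.02 to 0.40, unadjusted p = 0.033, limma adjusted p = 0.47). Probe set 1421851_at read 363.2, 422.2 and 410.2 in KO mice, against 396, 395.5 and 424.4 in WT mice (difference -0.03). The dim 1421850_at read 61.8, 81.7 and 71.8 in KO mice, against 119.4, 69.4 and 76.2 in WT mice (difference -0.23, interval -0.64 to 0.19). WT 1 was its highest mouse, and without WT 1 its difference was -0.02 (-0.14 without KO 1 and -0.35 without WT 2). That of 1421851_at was positive after centring (0.02), without KO 1 (0.04) and without WT 3 (0.0069). The value of 1450397_at is therefore given for that probe set alone.

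Map1a, the adult counterpart of Map1b, did not differ detectably in either probe set. The brightest (1460566_at) read 808.3, 747.3 and 701.3 in KO mice, against 829.6, 856.2 and 736.7 in WT mice (difference -0.10, or -0.05 without KO 3, interval -0.29 to 0.09, limma adjusted p = 0.79). Probe set 1455779_at read 129.9, 127.4 and 121.6 in KO mice, against 147.3, 98.5 and 143.4 in WT mice (difference -0.02, and 0.03 after centring). KO and WT overlapped in both.

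Map2, which marks dendrites and cell bodies more than axons, had a difference near 0 by its brightest probe set. That one (1434194_at) read 3608.6, 3760.6 and 3807 in KO mice, against 3283, 4023.6 and 3766.3 in WT mice, a difference of 0.02 (interval -0.15 to 0.19). The interval leaves room for a KO signal between 0.90 and 1.14 times that of WT. Probe set 1440699_at read 463.5, 553.1 and 473.3 in KO mice, against 425.8, 439.6 and 429.5 in WT mice. Here every KO mouse was above the narrow WT range (difference 0.19, limma adjusted p = 0.56), and KO 2 was farthest, with 0.11 left without it. Probe set 1421328_at read 550.6, 781.6 and 595.9 in KO mice, against 643.9, 662.4 and 611.4 in WT mice (difference -0.01). For 1421327_at the signals were 243.9, 346.5 and 341 in KO mice, against 300, 316.2 and 314.7 in WT mice (difference -0.02, or -0.09 without KO 3). KO mice spread more widely than WT mice in these last probe sets.

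Tubb3, the neuron-specific beta tubulin, gave 603.1, 596.1 and 670.1 in KO mice, against 682.9, 658.1 and 591.8 in WT mice. The groups overlapped almost fully (difference -0.05, interval -0.24 to 0.14, limma adjusted p = 0.92, and -0.10 without KO 3). Stmn2, a growth-associated stathmin of axons, was read by a pair of probe sets that ranked the mice almost alike (Spearman 0.94 over 6 mice). The brightest (1423280_at) read 1090.7, 1256.9 and 1444.8 in KO mice, against 1466.2, 1153 and 1267.5 in WT mice (difference -0.04, adjusted p = 0.95). Probe set 1423281_at read 826.1, 903.9 and 1056.7 in KO mice, against 1048.5, 862.2 and 1010 in WT mice (difference -0.07). KO 3 and WT 1 were the highest mice of their genotypes in both, so Stmn2 varied between mice within a genotype more than between genotypes. Without KO 3 the differences were -0.14 and -0.16, and without KO 1 they were 0.06 and 0.01. Stmn3, a related neuronal stathmin, had the narrowest interval of the members. Its brightest probe set (1435113_x_at) read 4530.9, 4588.7 and 4905.9 in KO mice, against 5267.3, 4697.7 and 4658.1 in WT mice (difference -0.06, or -0.09 without KO 3, interval -0.21 to 0.09). Probe set 1460181_at read 1856.9, 1731.6 and 1744.5 in KO mice, against 1823.4, 1597.1 and 1809.8 in WT mice (difference 0.03).

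Spread between mice of one genotype was set beside that of all probe sets tested. The median within-genotype SD of the 24 probe sets was 0.13 on the log2 scale, against 0.17 over all probe sets tested. The lowest mean signal of a member was 80.05, well above the filter, and spread was not compared at matched signal. By median over the 10 genes, relative to the WT mean, the mice stood at -0.06, -0.04 and 0.05 in KO 1, KO 2 and KO 3, against 0.11, -0.01 and -0.09 in WT 1, WT 2 and WT 3. The KO mice lay inside the WT range.

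Promoter sequences bear on the genes because PGC-1alpha acts at promoters through partners such as ERRalpha and NRF-1. RefSeq promoters of GRCm38.p6 were matched for 6 of the 10 members (Ina, Map1a, Map1b, Map2, Tubb3 and Stmn3), and Nefl, Nefm, Mapt and Stmn2 had no entry. The 250 bases before the start are printed for Ina (chr19:47014431-47014680, plus strand) and Map1b (chr13:99516603-99516852, minus strand), the genes whose brightest probe set had an unadjusted p under 0.05. Capitals mark GC boxes (GGGCGG on either strand) and, in Map1b, a TATAAA.
Ina: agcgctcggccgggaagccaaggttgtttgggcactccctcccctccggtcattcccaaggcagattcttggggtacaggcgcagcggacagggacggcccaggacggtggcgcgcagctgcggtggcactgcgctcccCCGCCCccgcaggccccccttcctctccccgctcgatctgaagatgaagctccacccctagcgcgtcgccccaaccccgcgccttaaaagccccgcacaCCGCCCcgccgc
Map1b: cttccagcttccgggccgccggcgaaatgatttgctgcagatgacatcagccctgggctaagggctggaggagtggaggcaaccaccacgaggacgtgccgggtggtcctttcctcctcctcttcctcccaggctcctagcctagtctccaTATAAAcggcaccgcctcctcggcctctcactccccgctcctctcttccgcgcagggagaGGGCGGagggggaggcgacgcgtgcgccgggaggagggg
Searched on both strands, the ERR core site AAGGTCA occurred in 0 of the 6 promoters, against 4.08% of 32851 promoters in the table. The centre of the NRF-1 site, CGCATGCG, occurred in 0 of 6, against 1.55%. The cAMP response element TGACGTCA occurred in 0 of 6, also against 1.55%, and TATAAA in 1 of 6, against 12.4%. GC boxes occurred in 5 of 6, against 32.7% of all promoters, and the 6 promoters had a median GC content of 67.2%, against 52.4% of all. Some GC boxes overlap in Map1a. Absence of these letters in a 250-base window says nothing about binding elsewhere.

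Other genes of the axonal cytoskeleton also gave no call. A list of 112 genes was drawn by role, and 104 were tested by their brightest probe set. Of these 0 passed in either direction, against 0.446% of all named genes, and 50 were positive and 54 negative, with a median of -0.004. At an unadjusted p under 0.05 there were 2 higher and 3 lower, 5 of 104, against 9.73% of all named genes. KO and WT did not overlap in 8.65% of the 104, 4 with KO higher and 5 with KO lower, against 14.4% of all probe sets. That last share is over probe sets and not over named genes, so the 2 are not strictly alike. The medians by role ran from -0.16 to 0.08.

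The other intermediate filament and cytolinker genes (4 of 5 tested) had the lowest median, -0.16 (-0.28 without KO 3), and all 4 were negative without passing, Nefh at -0.35 and Plec, a cytolinker, at -0.22. Plec was the only one whose groups did not overlap, and Nefh shared the high WT 1. Tubulins other than Tubb3 (10 of 12 tested) had a median of -0.05. Their smallest p were for Tubb6, a dim probe set, at -0.51 (adjusted p = 0.50) and Tubb2b at -0.23. The other microtubule-associated proteins, stathmins and collapsin response mediators (19 tested) had a median of -0.02, with Map1s at -0.28 and Mapre1 at -0.27. Spectrins, ankyrins and axon membrane anchors (13 of 14 tested) had a median of 0.02. Ank2, the ankyrin-B that ties spectrin to axonal membrane, was at 1640.2, 1521.2 and 1550.4 in KO mice, against 1797.6, 2112.1 and 1679.4 in WT mice. Its groups did not overlap (difference -0.24, limma adjusted p = 0.38), with Add1 next at 0.12.

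Kinesin and dynein motors (23 of 24 tested) had a median of -0.01. Dync1li1, a dynein light intermediate chain, had the most positive difference of the context genes at 0.59 (adjusted p = 0.40), with KO and WT overlapping, and Kif5b, a conventional kinesin heavy chain, was at 0.16. Kinases and phosphatases of tau (17 tested) had a median of 0.02. Mark2, which phosphorylates tau at its microtubule-binding repeats, read 474, 412.1 and 394.9 in KO mice, against 352, 378.2 and 315.8 in WT mice. Its groups did not overlap (difference 0.28, adjusted p = 0.39), and Ttbk2 was at -0.24. Tubulin folding, modifying and severing genes (13 of 14 tested) had a median of 0.03, with Spast, which severs microtubules, at 0.14 and Agtpbp1, a tubulin deglutamylase, at 0.15. In this list the groups did not overlap for 3 genes with KO higher, Spast among them, and 1 with KO lower. Growth cone and axon injury genes (5 of 7 tested) had a median of 0.08, with Jun at 0.20 and Marcksl1 at 0.16. Without KO 3 this median was -0.04, and it was 0.15 without KO 1, 0.15 without KO 2 and 0.16 without WT 3.

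**Figure D4:**
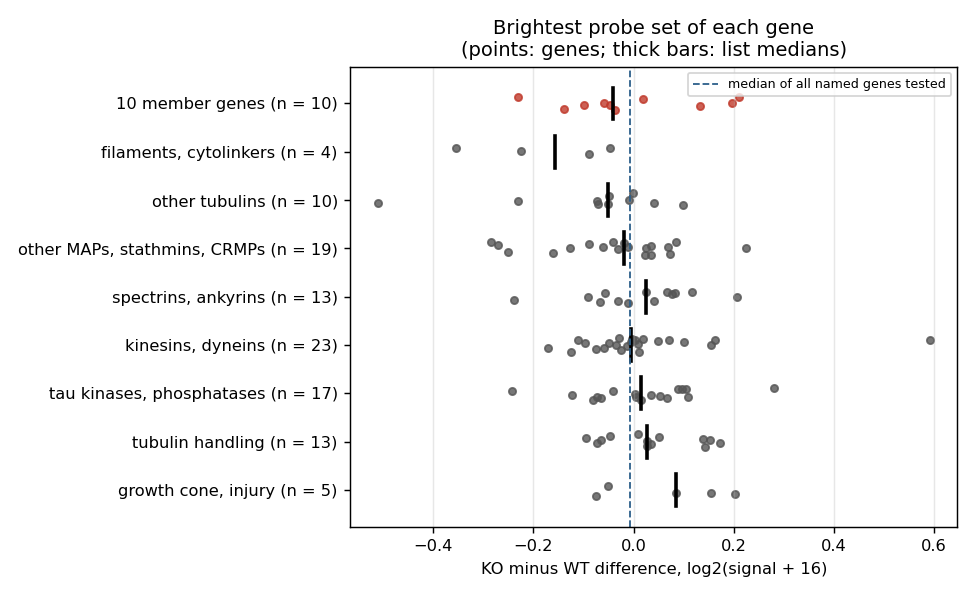
KO minus WT difference of the brightest probe set of each gene on the log2(signal + 16) scale, for the 10 members (red) and 8 lists of other cytoskeletal genes (grey), with list medians as thick bars and the median of all named genes as a dashed line. Most points lie within 0.3 of 0, Tubb6 at -0.51 and Dync1li1 at 0.59 lie farthest out, and none passed the threshold.

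The genes whose signal followed the subunits most closely over the 6 mice were picked by the highest Pearson correlation among all named probe sets, and with 6 arrays such values are a description only. For Nefl they were Vdac1 (0.99), Rab10 (0.99) and Kdsr (0.98), for Nefm Elmod2 (0.99), Dock5 (0.99) and Pcyox1l (0.99), and for Ina Clic4 (0.99), Nt5dc3 (0.99) and Rgs3 (0.99). Dock5 lies next to Nefl on chromosome 14, with 0 protein-coding genes between them and 1 between it and Nefm. Its probe set read 66.8, 76.6 and 55.9 in KO mice, against 90.2, 70.8 and 73.2 in WT mice, with WT 1 highest and KO 3 lowest as for Nefm. Clic4 read 608.4, 557 and 571.5 in KO mice, against 540.9, 445.4 and 481.3 in WT mice, KO above WT in every mouse as for Ina, and did not pass (difference 0.24, limma adjusted p = 0.42).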

How the data were processed

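The authors deposited linear intensity values made with MAS5 according to the submitters' processing notes, with 1 value for each probe set in each mouse. Neither version nor settings are stated there. The authors had scaled the arrays to a common level, with medians of 43.1 to 47.3 on the 6 arrays. Detection calls were not used. Of 45101 probe sets, 64 controls were left out. Of the rest, 34945 had 1 gene symbol, 932 several and 9160 none in the platform annotation, and 34741 of the first matched the GRCm38.p6 gene table used for current names. The annotation names no build, so probe sets are given without coordinates, and promoter positions and gene order are those of the GRCm38.p6 tables.

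Tests used log2(signal + 16), and all differences are on that scale, which shrinks changes of dim features. A filter removed the lowest 40% of probe sets by mean log2 signal (up to about 26.8). The remaining 27022 were fitted with limma 3.58.1 in R 4.3.3 (lmFit, eBayes with trend), with Benjamini-Hochberg adjustment over all of them. A two-sided exact permutation test over mice cannot go below 0.1. The fit was tested on simulated data first. There a true log2 difference of 0.3 was called in 1.2% of cases, 0.5 in 12.7% and 1 in 58.3%. The absence of a call therefore says little about differences of 0.3 or less.

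Genotype and number were read from the titles. Each replicate is another mouse, and 3 arrays per genotype limit the precision. Every member was named. For each of the other cytoskeletal and marker lists the members passing the threshold were named or, without any, the 2 with the smallest p. Slc17a6, Cx3cr1 and Snap25 were named outside this rule. Each listed gene entered by its brightest tested probe set. The members and lists were chosen with earlier results of these data known. Alternatives were centring, quantile normalization, offsets of 1 and 64, other filters, eBayes without trend or robust, the replicate number as a block, averaging a gene's probe sets, and omitting each array in turn.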

Additional observations from a re-analysis of the deposited data

How the results depend on the processing

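Under all 15 alternative settings 0 of the 24 member probe sets passed, with adjusted p of 0.30 or more in limma, and 0 genes of the 8 other cytoskeletal lists passed. Of 360 member values under these settings, 337 kept their sign and 23 changed it, all with an adjusted p of 0.82 or more. Centring each array on its median moved the median of all probe sets by 0.04, gave 16 of 24 member probe sets a positive sign and turned the sign of Map1a 1455779_at (0.027), Map1b 1421851_at (0.019), Map2 1421328_at (0.037), Map2 1421327_at (0.029) and Stmn2 1423280_at (0.0067). The same shift applied to the median of every list. It gave 0.024 for the other microtubule-associated proteins and 0.039 for the motors, both negative before, and 0.070 for tubulin handling. Without any 1 array the ranges that crossed 0 were -0.018 to 0.24 (Nefl 1426255_at), -0.24 to 0.13 (Mapt 1417885_at), -0.18 to 0.075 (Map1a 1455779_at), -0.067 to 0.037 (Map1b 1421851_at), -0.064 to 0.083 (Map2 1434194_at), -0.15 to 0.093 (Map2 1421328_at), -0.099 to 0.14 (Map2 1421327_at), -0.14 to 0.063 (Stmn2 1423280_at), -0.16 to 0.010 (Stmn2 1423281_at) and -0.032 to 0.063 (Stmn3 1460181_at). The medians then ran from -0.072 to 0.016 for the members, from -0.28 to -0.11 for the filament list (-0.22 with no filter) and from 0.0091 to 0.051 for tubulin handling. Those of 4 lists crossed 0, at -0.044 to 0.16 (growth cone and injury), -0.041 to 0.027 (motors), -0.022 to 0.062 (kinases and phosphatases of tau) and -0.0049 to 0.041 (spectrins and ankyrins, -0.020 with averaged probe sets). Over all probe sets 127 were called, 37.8% of them higher in KO (50.9% with centring). There were 25 without the trend, 52 with no filter and 66 to 101 without any 1 array, with 66 without KO 1, 74 without KO 2 and 69 without WT 2. With the replicate block, 0 member probe sets passed and 100 were called over all (difference -0.23 for Nefm and 0.20 for Ina 1448991_a_at, as without it). Deviations of same-numbered mice correlated at -0.01, -0.03 and 0.02 over the array, against -0.04 to 0.05 for other pairs of KO and WT mice. Such values cannot show whether a pairing acted on a smaller group of genes. The cause of these changes was not tested.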
